A study of Homo sapiens with 18 samples.

Results

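The genes described here encode the SR and hnRNP splicing regulators, the RNA-binding proteins that decide which exons of a pre-mRNA are kept. Members were chosen by gene name, with earlier results of these data known, and each symbol was matched to the Ensembl identifier of a gene in the count table. All 43 members were found among the 18670 genes of the table. They comprised 12 SR proteins (SRSF1 to SRSF12), 7 SR-like proteins, 2 SR protein kinases (SRPK1 and SRPK2) and 22 hnRNP and PTB proteins.

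SR proteins carry an RNA-recognition motif and a domain rich in arginine and serine, bind enhancers within exons and recruit the spliceosome. The SRPK and CLK kinases phosphorylate that domain, which moves SR proteins into the nucleus and out of nuclear speckles. The hnRNP proteins coat nascent transcripts and often act against SR proteins by silencing exons. Many genes of both families regulate themselves through an unproductive splice form, either a poison exon or a retained intron, that is destroyed by nonsense-mediated decay or kept in the nucleus.

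The study measured total RNA of U937 and THP-1, both established human lines labelled as acute myeloid leukemia. U937 cells carried a lentiviral knockdown of S100A9 (shS100A9) or an empty vector. THP-1 cells carried a lentiviral S100A9 overexpression construct or an empty vector, and each was left untreated or given Adavivint at 1 µM for 36 h. S100A9 is the gene of a calcium binder abundant in myeloid cells, and Adavivint (lorecivivint) has been described as blocking CLK and DYRK kinases and Wnt signalling. Both lines were selected with puromycin at 2 µg/mL, begun 48 h after transduction and kept for at least 24 h, so the empty vector cells share the lentivirus and the selection. The labels name 1 shRNA and 1 overexpression construct, with no second construct and no parental cells among the 18 libraries. Each of the 6 groups held 3 libraries.

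Libraries held 38.4 to 84.4 M counts (M stands for 1e6). S100A9 followed its label in every library: the shS100A9 libraries held no more than 0.40 CPM (counts per 1e6 counts of the library), against 4.49 to 7.10 CPM with empty vector, and the untreated overexpressing libraries held 26.3 to 29.1 CPM, against 3.85 to 9.38 CPM with empty vector. S100A9 itself rose with Adavivint, 3.80-fold in overexpressing cells (adjusted p = 2.48e-07; 103 to 113 CPM) and 2.16-fold with empty vector (adjusted p = 1.74e-04; 12.8 to 15.0 CPM), so overexpression under drug was compared at these higher levels. In U937, shS100A9 replicate 3 and empty vector replicate 2 stood apart from the other libraries of their groups, where the chi-square divided by its degrees of freedom was 141 to 235 against them, and 8.33 and 13.6 between the remaining libraries of each group. Of 12 markers that define myeloid cells, 10 reached 1 CPM in each U937 group (MPO and CD14 did not), 11 in each untreated THP-1 group and 12 in each group with Adavivint. Their summed level was 1912 to 1993 CPM in overexpressing cells with drug, 1845 to 2015 CPM in empty vector cells with drug, 1565 to 1598 CPM in untreated overexpressing cells and 1493 to 1533 CPM in untreated empty vector cells. With drug 4 of the 12 were called higher and 5 lower in overexpressing cells, beside 43.4% and 41.3% of all genes. In empty vector cells 5 were called higher and 5 lower, beside 44.2% and 41.1%. CD14 rose by 5.95 and 5.87 on the log2 scale in overexpressing and empty vector cells, from at most 25 counts a library. LYZ rose by 1.13 and 1.04. CD33 fell by 1.97 and 1.93, FCGR1A by 1.79 and 1.80, ITGAM by 1.26 and 1.83 and CD68 by 0.16 and 0.63. The part of these markers in the results below was not tested. Of 16 markers of other blood or tissue cells, 13 were in the table and at most 3 reached 1 CPM, with sums of 8.78 to 17.2 CPM. Values are shares of a library, so fewer cells of a type and less RNA per cell cannot be told apart. Whether replicates came from separate cultures is not stated in the labels, and the p-values therefore reflect only the spread among these libraries, which may be technical.

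The members spanned a wide range of levels. Exon length here joins the exons of all annotated transcripts of a gene, retained introns included, so the order per kb depends on the annotation. HNRNPU, with 22512 bases, had a mean of 1862 CPM over the untreated THP-1 libraries. HNRNPA1, with 5093 bases, had 1510 CPM over the same libraries. In untreated empty vector THP-1 cells the highest level per exon length was that of HNRNPA1, an abundant hnRNP that silences exons, at 290 ± 13.6 CPM per kb (SD, n = 3). HNRNPA2B1, its close relative, had 270 ± 17.9 CPM per kb, a gap about as wide as their spread. HNRNPK, which binds C-rich RNA, followed at 196 ± 17.6 CPM per kb and HNRNPA3 at 194 ± 11.6 CPM per kb, which did not differ beyond their spread. SRSF1, the prototype SR protein, was the highest of its class at 179 ± 19.7 CPM per kb. At the other end stood SRSF8, an intronless relative of SRSF2, at 8.61 ± 0.217 CPM per kb, HNRNPLL, known for the splicing of CD45 in lymphocytes, at 1.77 ± 0.108 CPM per kb, and SRSF12, which had 3 counts over the 3 libraries. The lines shared most of this order, with HNRNPA1 also highest in U937 cells at 318 ± 24.0 CPM per kb with shS100A9 and 289 ± 37.4 CPM per kb with empty vector. HNRNPLL had 0.179 to 0.321 CPM in shS100A9 U937 cells and 0.208 to 0.777 CPM in empty vector U937 cells, far below its 9.73 to 10.9 CPM in empty vector THP-1 cells. The lines were scaled separately, and no test between them was made.

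Several members share sequence with another counted gene, and whether the counting used strand is not given in the sources used. More of the members than of the tested genes have an unproductive transcript in the annotation. GENCODE 29 annotates a transcript subject to nonsense-mediated decay for 35 of the 43 members (81.4%), against 40.7% of 15303 genes tested in THP-1, and a retained intron for 33 members (76.7%), against 53.4%. Members have a median of 12 annotated transcripts, against 7. The counts are per gene and do not separate productive from unproductive forms.

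**Figure D1:**
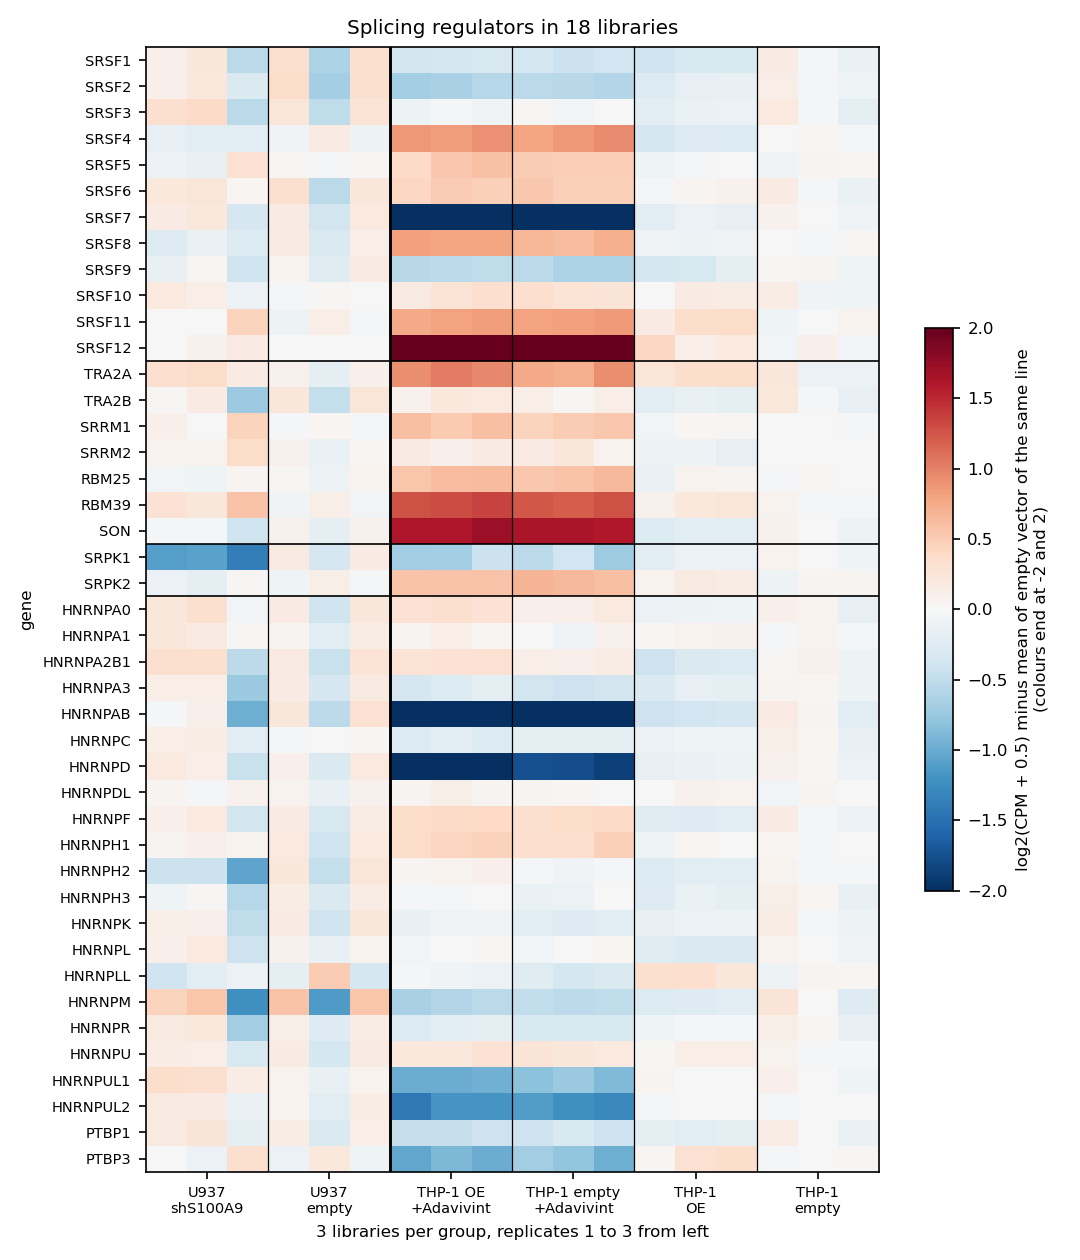
Level of each of the 43 members (rows, by class) in each of the 18 libraries (columns, 3 per group), as log2(CPM + 0.5) minus the mean of the empty vector libraries of the same line without drug. Colours end at -2 and 2. The 6 Adavivint libraries resemble each other, with SON, RBM39 and SRSF12 dark red and SRSF7, HNRNPAB and HNRNPD dark blue, and shS100A9 replicate 3 and empty vector replicate 2 stand apart among the U937 columns.

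Adavivint changed most members, in both directions. In overexpressing cells 23 members rose and 14 fell of 43 tested, beside 84.7% of all 15403 genes changed (43.4% higher and 41.3% lower). In empty vector cells 18 rose and 17 fell, beside 85.3% of all genes changed (44.2% higher and 41.1% lower). The members' changed share was thus near that of all genes: 86.0% in overexpressing and 81.4% in empty vector cells. In overexpressing cells the treated and untreated libraries did not overlap in 38 members, beside 87.5% of all genes, and in empty vector cells in 35 members, beside 85.1%. A rise of at least 2-fold was seen in 4 members in overexpressing cells (beside 25.3% of all genes) and in 3 in empty vector cells (25.8%), and a fall of that size in 6 members (22.8%) and 4 members (21.7%). The median log2 fold change of the members was 0.15 in overexpressing cells and 0.00 in empty vector cells, and that of all genes was 0.04 and 0.06. With upper quartile scaling the all-gene medians were 0.13 and 0.14, and member values shifted with them, to medians of 0.25 and 0.09. The 2 drug contrasts share no library, and 18 members rose in both, 14 fell in both and none rose in one and fell in the other. Across 42 members without SRSF12, the log2 fold changes had Pearson's r = 0.967, given as a description of genes that share their libraries. Neither the shared calls nor the correlation was computed over all genes, of which 84.7% and 85.3% changed. These values therefore do not set the members apart from other genes.

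All 7 members classed here as SR-like were higher with Adavivint in overexpressing cells, beside 43.4% of all genes. In empty vector cells 6 of 7 were higher, beside 44.2% of all genes, and TRA2B had a log2 fold change of 0.09 (adjusted p = 0.295). The class is a list chosen here, and the rise is that of these 7 genes. Of 45 other splicing regulators tested, 18 rose and 21 fell in overexpressing cells, and 18 rose and 23 fell in empty vector cells. The summed level of the 7 SR-like members was 4496 to 4689 CPM with drug against 2319 to 2444 CPM without in overexpressing cells, and 4440 to 4450 CPM against 2406 to 2611 CPM in empty vector cells.

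SON, a scaffold of nuclear speckles that promotes the splicing of weak introns, had the largest rise of the class. It lies on chromosome 21 at 33542618 to 33577481 (plus strand, GRCh38). Its level was 1672, 1684 and 1783 CPM with Adavivint against 452, 474 and 472 CPM without in overexpressing cells. With empty vector it was 1702, 1692 and 1664 CPM with Adavivint against 582, 547 and 511 CPM without. Every treated library was above every untreated one, by 3.68-fold in overexpressing cells (log2 fold change 1.88, SE 0.05, adjusted p = 4.28e-13) and 3.08-fold in empty vector cells (1.62, SE 0.05, adjusted p = 1.50e-12). GART, a purine synthesis gene on the opposite strand that shares 275 bases of exon with SON, fell to 81.4 to 88.4 CPM with drug against 277 to 282 CPM without in overexpressing cells, and to 86.0 to 92.7 CPM against 269 to 293 CPM in empty vector cells. The rise of SON was therefore not shared by that overlapping gene.

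RBM39, a relative of U2AF that takes part in choosing splice sites (chromosome 20, 35701347 to 35742312, minus strand), had 653, 665 and 688 CPM with Adavivint against 285, 313 and 317 CPM without in overexpressing cells. With empty vector it had 635, 623 and 654 CPM with Adavivint against 281, 264 and 262 CPM without. The groups did not overlap, and the rise was 2.19-fold (1.13 on the log2 scale, SE 0.05, adjusted p = 4.31e-11) in overexpressing and 2.37-fold (1.24, SE 0.05, adjusted p = 1.80e-11) in empty vector cells. TRA2A, an activator that binds GAA-rich enhancers, rose by 0.66 and 0.80 on the log2 scale in overexpressing and empty vector cells. RBM25, a regulator of the BCL2L1 splice choice, rose by 0.60 and 0.59, and SRRM1, a splicing coactivator, by 0.58 and 0.50. SRRM2, the other main scaffold of speckles, rose less, by 0.27 and 0.15, and its call in empty vector cells was lost without treated replicate 2 (adjusted p = 0.0547). TRA2B, the paralog of TRA2A, rose by 0.35 in overexpressing cells, and the difference from empty vector cells did not pass its test.

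The SR proteins moved in both directions. In overexpressing cells 7 of 12 rose and 3 fell, beside 43.4% of all genes higher and 41.3% lower. In empty vector cells 7 rose and 4 fell, beside 44.2% higher and 41.1% lower. SRSF4, one of the largest SR proteins, had 297, 292 and 308 CPM with Adavivint against 129, 136 and 134 CPM without in overexpressing cells, and 281, 297 and 315 CPM against 163, 168 and 158 CPM in empty vector cells. It rose 2.25-fold (1.17 on the log2 scale, SE 0.05, adjusted p = 2.80e-11) in overexpressing cells and 1.83-fold (0.87, SE 0.05, adjusted p = 6.26e-10) in empty vector cells. SRSF8 rose by 0.89 and 0.67, SRSF11, an SR protein with a divergent RNA-recognition motif, by 0.50 and 0.83, SRSF5 by 0.55 and 0.50, SRSF6 by 0.43 and 0.49, and SRSF10, a repressor when it is dephosphorylated, by 0.15 and 0.29. The SRSF10 call in overexpressing cells was kept in 2 of the 6 leave-one-out fits (highest adjusted p 0.197).

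SRSF7, which also serves as an adaptor for mRNA export, had the largest fall of the SR proteins (chromosome 2, 38743599 to 38751494, minus strand). It had 63.9, 62.0 and 58.3 CPM with Adavivint against 239, 258 and 252 CPM without in overexpressing cells. With empty vector it had 56.4, 55.9 and 55.4 CPM with Adavivint against 298, 277 and 266 CPM without. No treated library came near an untreated one, and the fall was 4.07-fold (-2.02 on the log2 scale, SE 0.05, adjusted p = 3.99e-13) in overexpressing and 5.02-fold (-2.33, SE 0.05, adjusted p = 1.54e-13) in empty vector cells. SRSF3, the closest relative of SRSF7 and likewise an export adaptor, did not pass the test: it had 465 to 490 CPM with Adavivint against 433 to 465 CPM without in overexpressing cells, and 483 to 508 CPM against 441 to 577 CPM in empty vector cells. SRSF2, a target of mutations in myeloid neoplasms, fell by 0.44 and 0.56 on the log2 scale in overexpressing and empty vector cells. MFSD11, on the opposite strand over 36.7% of the exon length of SRSF2, rose by 0.55 and 1.00 at levels of 23.8 to 26.9 CPM with drug. SRSF9 fell by 0.25 and 0.61. GATC, on the opposite strand over 46.2% of the exon length of SRSF9, held 55.6 to 65.6 CPM with drug and 56.6 to 70.0 CPM without. Its log2 fold change was 0.10 in overexpressing (adjusted p = 0.130) and -0.14 in empty vector cells (adjusted p = 0.0454). Over the libraries with drug its mean was 61.7 CPM, against 84.2 CPM for SRSF9. SRSF1 fell by 0.39 in empty vector cells (adjusted p = 5.69e-05) and not in overexpressing cells, where its log2 fold change was -0.01 (adjusted p = 0.877). A same-strand gene without a symbol that overlaps 56.6% of the exon length of SRSF1 held 50.6 to 57.6 CPM with drug against 11.6 to 22.7 CPM without.

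SRSF12, a divergent SR protein known to oppose the others, was nearly silent without drug. It had 4.40, 2.65 and 3.39 CPM with Adavivint against 0.195, 0.0708 and 0.0950 CPM without in overexpressing cells. In empty vector cells it had 3.54, 3.09 and 3.56 CPM with Adavivint against 0, 0.0596 and 0 CPM without. These are 450 counts against 3 counts over 3 libraries each in empty vector cells, a ratio of 183 with an exact 95% interval from the counts of 62.4 to 893, which covers counting error only. In overexpressing cells the fitted rise was 30.1-fold (4.91 on the log2 scale, SE 0.41). SRSF12 passed the expression filter of the THP-1 fit only through the libraries with drug. The direction of its drug test was thus set by that filter, and the test adds no support. It is counted among the members that rose with drug. Even with drug its highest library held 4.40 CPM.

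The kinases moved in opposite directions. SRPK1 had 129, 130 and 154 CPM with Adavivint against 181, 193 and 193 CPM without in overexpressing cells, and 143, 160 and 127 CPM against 219, 210 and 197 CPM in empty vector cells. Its log2 fold change was -0.46 (SE 0.08, adjusted p = 1.54e-04) in overexpressing and -0.54 (SE 0.08, adjusted p = 3.05e-05) in empty vector cells. SRPK2 rose by 0.44 and 0.65, and KMT2E, which shares 98 bases of exon with it on the opposite strand, rose as well, by 1.62 and 1.81.

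**Figure D2:**
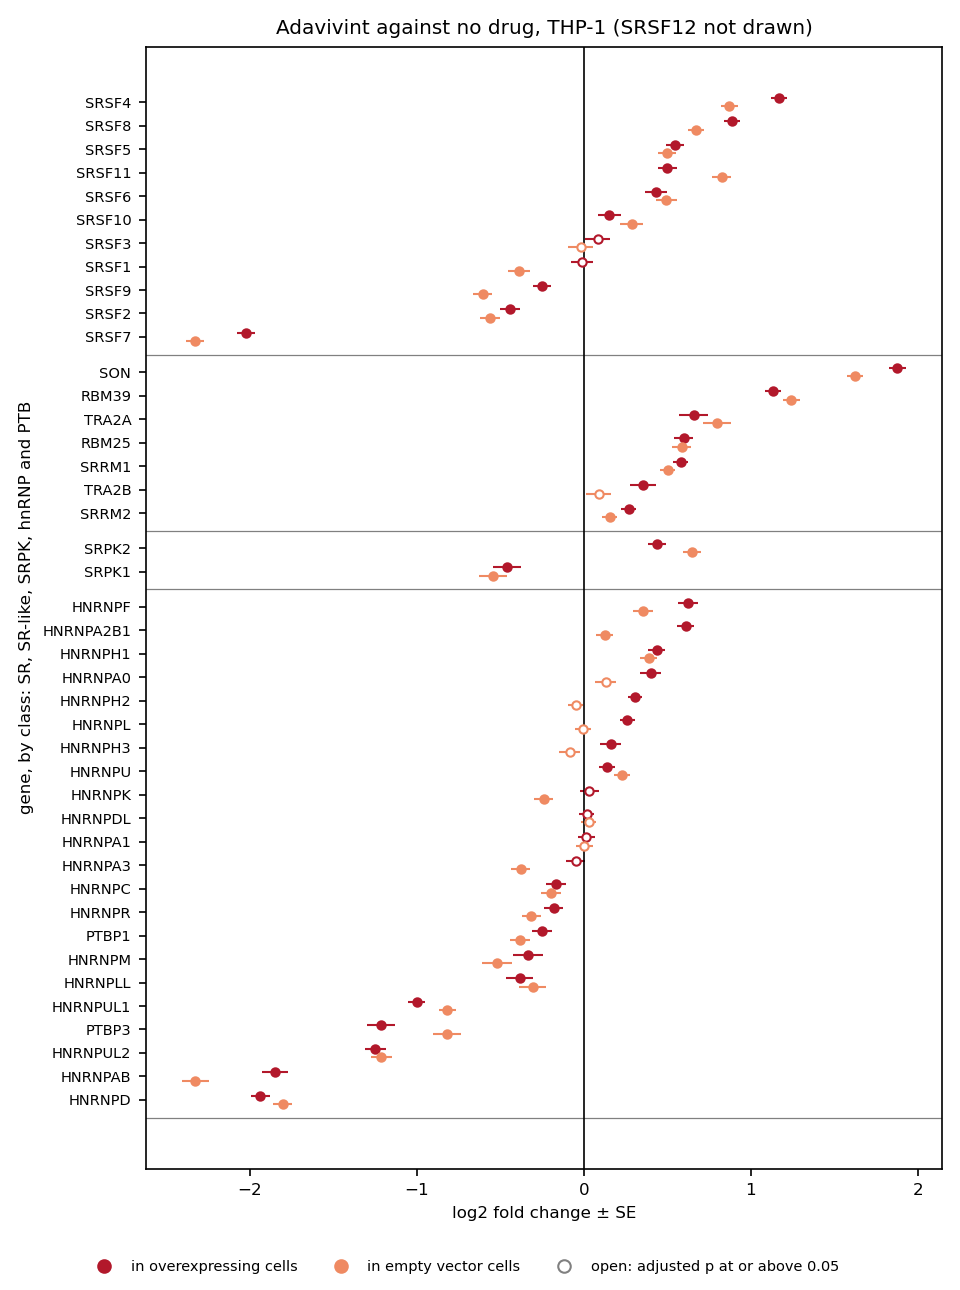
Log2 fold change of Adavivint against no drug (x axis, points, with SE as bars) for 42 members (y axis, by class) in overexpressing and empty vector THP-1 cells. Filled points have an adjusted p under 0.05. All 7 SR-like proteins lie right of 0, while SRSF7, HNRNPAB and HNRNPD lie near -2 with both vectors.

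The hnRNP and PTB proteins moved in both directions. In overexpressing cells 10 of 22 fell and 8 rose, beside 41.3% of all genes lower and 43.4% higher, and in empty vector cells 12 fell and 4 rose, beside 41.1% lower and 44.2% higher. None of the 22 rose 2-fold with either vector, beside 25.3% of all genes in overexpressing and 25.8% in empty vector cells. A fall of at least 2-fold was seen in 5 of the 22 in overexpressing cells, beside 22.8% of all genes. In empty vector cells it was seen in 3, beside 21.7%. The summed level of the 22 stayed close, at 14171 to 14715 CPM with drug against 13498 to 14213 CPM without in overexpressing cells, and at 13784 to 14093 CPM against 14093 to 15699 CPM in empty vector cells.

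HNRNPD, also called AUF1, which binds AU-rich elements and speeds mRNA decay, and HNRNPAB, a related protein that binds single-stranded RNA and DNA, fell the most. HNRNPD (chromosome 4, 82352498 to 82374503, minus strand) had 136, 143 and 144 CPM with Adavivint against 531, 543 and 551 CPM without in overexpressing cells. The empty vector cells had 175, 173 and 162 CPM with Adavivint against 627, 607 and 546 CPM without. It fell 3.83-fold (-1.94 on the log2 scale, SE 0.06, adjusted p = 7.54e-13) in overexpressing and 3.49-fold (-1.80, SE 0.06, adjusted p = 1.41e-12) in empty vector cells. Its paralog HNRNPDL, the nearest gene of the family on the same chromosome (82422564 to 82430408), did not pass the test, with 489 to 514 CPM with drug against 475 to 504 CPM without in overexpressing cells and 474 to 489 CPM against 453 to 494 CPM in empty vector cells. HNRNPAB (chromosome 5, 178204507 to 178211163, plus strand) had 56.9, 55.0 and 54.7 CPM with Adavivint against 196, 200 and 206 CPM without in overexpressing cells. In empty vector cells it had 53.6, 54.5 and 48.3 CPM with Adavivint against 290, 269 and 226 CPM without. It fell 3.61-fold (-1.85 on the log2 scale, SE 0.08, adjusted p = 2.80e-11) in overexpressing and 5.02-fold (-2.33, SE 0.08, adjusted p = 3.60e-12) in empty vector cells.

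SRSF7, HNRNPD and HNRNPAB had the largest falls among the members, and sequence before the RefSeq start site of each is shown for that reason: the longest stretch of the 250 bases that holds no exon annotated in GENCODE 29, from RefSeq on GRCh38.p14, 5′ to 3′ on the gene's strand. Capitals mark matches to the motifs searched on both strands: the E-box CACGTG, the CCAAT box (CCAAT or ATTGG), the GC box (GGGCGG or CCGCCC) and the TATA box (TATAAA or TTTATA).
SRSF7, chr2:38751495-38751533, minus strand: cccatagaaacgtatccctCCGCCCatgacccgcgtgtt
HNRNPD, chr4:82373992-82374118, minus strand: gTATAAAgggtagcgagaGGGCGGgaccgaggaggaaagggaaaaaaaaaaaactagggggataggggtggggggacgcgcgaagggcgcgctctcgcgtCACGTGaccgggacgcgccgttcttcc
HNRNPAB, chr5:178204283-178204506, plus strand: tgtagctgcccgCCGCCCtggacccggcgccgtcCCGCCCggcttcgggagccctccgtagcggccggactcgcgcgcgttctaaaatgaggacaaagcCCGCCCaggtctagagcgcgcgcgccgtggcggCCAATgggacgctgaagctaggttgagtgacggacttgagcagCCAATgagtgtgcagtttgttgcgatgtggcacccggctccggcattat
The stretches are 39 (SRSF7), 127 (HNRNPD) and 224 bases (HNRNPAB) long, so the lack of a motif cannot be compared between them. They share the GC box, which 61.5% of all promoters hold in the wider window described below, and no other searched motif. HNRNPD alone of the stretches printed has the E-box, at position -27 from its RefSeq start site. The HNRNPD stretch lies within the gene as GENCODE 29 places it.

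Over windows of 250 bases before to 50 after the start site, 39 of 43 members had a RefSeq promoter (not HNRNPA1, SRSF2, TRA2A and RBM39). The E-box, known as the site bound by MYC with MAX, was found in 7 of 39 (17.9%), against 9.15% of 14364 promoters, and all 7 belonged to hnRNP genes (HNRNPA3, HNRNPD, HNRNPDL, HNRNPH2, HNRNPH3, HNRNPM and HNRNPUL1). With Adavivint 3 of these 7 fell and 2 rose in overexpressing cells, and 4 fell and none rose in empty vector cells. Among all tested genes with the motif, 45.4% fell and 39.6% rose in overexpressing cells and 46.5% fell and 39.6% rose in empty vector cells. The difference in share was not tested for any motif. Of the other motifs the GC box was found in 66.7% of members against 61.5% of all promoters, the CCAAT box in 48.7% against 36.4%, the TATA box in 12.8% against 8.50% and the ETS motif (CCGGAAG or CTTCCGG) in 12.8% against 15.2%. A match is a run of letters and no evidence that a factor binds there.

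Among the other members that fell were HNRNPUL2 and HNRNPUL1, relatives of HNRNPU with a role in DNA repair. HNRNPUL2 had 97.4, 116 and 116 CPM with Adavivint against 256, 263 and 264 CPM without in overexpressing cells, and 121, 112 and 108 CPM against 260, 264 and 265 CPM in empty vector cells. Its log2 fold change was -1.25 (SE 0.06, adjusted p = 2.02e-10) in overexpressing and -1.21 (SE 0.06, adjusted p = 2.82e-10) in empty vector cells. The readthrough locus HNRNPUL2-BSCL2 shares 44.1% of the exon length of HNRNPUL2 and rose over the same libraries, to 68.1 to 97.2 CPM with drug against 11.5 to 15.2 CPM without in overexpressing cells and 68.7 to 96.7 CPM against 11.7 to 20.6 CPM in empty vector cells. The sum of both was 190 ± 5.34 CPM with drug against 274 ± 5.86 CPM without in overexpressing cells and 198 ± 7.74 CPM against 278 ± 6.58 CPM in empty vector cells (SD, n = 3 each), so the fall of the summed level was smaller than that of HNRNPUL2 alone. HNRNPUL1 fell by 1.00 and 0.82 on the log2 scale in overexpressing and empty vector cells. TGFB1, which shares 215 bases of exon with HNRNPUL1 on the opposite strand, fell as well, by 1.79 and 1.95.

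PTBP3, the paralog of PTBP1 of blood cells, had 99.4, 110 and 103 CPM with Adavivint against 210, 254 and 261 CPM without in overexpressing cells, and 126, 118 and 103 CPM against 200, 205 and 209 CPM in empty vector cells. It fell by 1.22 (SE 0.08, adjusted p = 5.25e-09) on the log2 scale in overexpressing and by 0.82 (SE 0.08, adjusted p = 4.07e-07) in empty vector cells. PTBP1, the polypyrimidine tract binding protein that silences exons, fell by 0.25 and 0.38, HNRNPM by 0.34 and 0.52, HNRNPLL by 0.38 and 0.31, HNRNPR by 0.18 and 0.31 and HNRNPC, which binds uridine tracts, by 0.17 and 0.20. The HNRNPC call in overexpressing cells was lost without treated replicate 1 (adjusted p = 0.0505). HNRNPA3 and HNRNPK fell by 0.38 and 0.24 in empty vector cells and had log2 fold changes of -0.05 and 0.03 in overexpressing cells.

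The hnRNPs that rose were HNRNPF and HNRNPH1, which bind runs of G, and HNRNPU and HNRNPA2B1. HNRNPF rose by 0.63 and 0.35 on the log2 scale in overexpressing and empty vector cells, HNRNPA2B1 by 0.61 and 0.12, HNRNPH1 by 0.44 and 0.39 and HNRNPU by 0.14 and 0.23. The HNRNPU call in overexpressing cells was kept in 4 of 6 fits that left out 1 library (adjusted p up to 0.0691). The HNRNPA2B1 call in empty vector cells was kept in 2 of 6 such fits (adjusted p up to 0.178). HNRNPA0, HNRNPH2, HNRNPL and HNRNPH3 rose in overexpressing cells by 0.40, 0.31, 0.26 and 0.16 and did not pass the test in empty vector cells. The difference between the drug effects passed its own test for all of these but HNRNPH3, whose call was kept in 1 of 6 such fits (adjusted p up to 0.104). The locus RPL36A-HNRNPH2 shares 16.3% of the exon length of HNRNPH2 on the same strand. With drug it rose by 2.69 and 2.58 in overexpressing and empty vector cells, to means of 10.3 and 9.2 CPM. HNRNPA1 did not pass the test, with 1538, 1612 and 1517 CPM with Adavivint against 1502, 1544 and 1575 CPM without in overexpressing cells and 1471, 1405 and 1568 CPM against 1447, 1558 and 1432 CPM in empty vector cells. The groups overlapped, and its log2 fold changes were 0.01 (SE 0.05) and 0.00 (SE 0.05). Its near copies HNRNPA1L2 and HNRNPA1L3 held up to 46.7 CPM, and how reads shared with them were counted is not known.

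**Figure D3:**
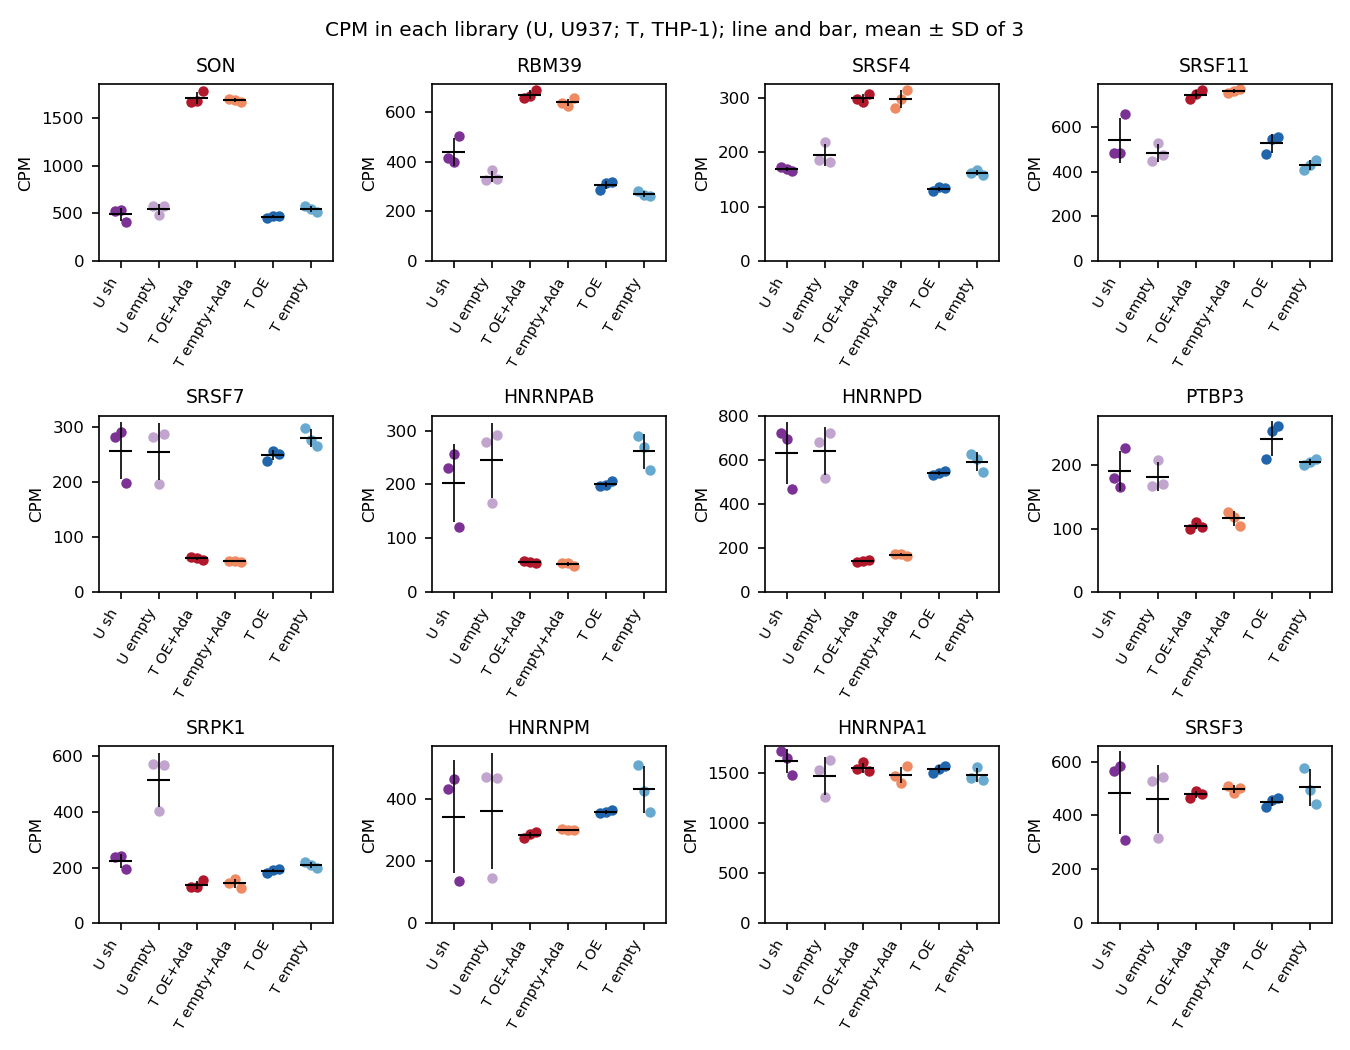
Level in CPM (y axis, from 0) of 12 members in each library (points) of the 6 groups (x axis), with the mean as a line and the SD as a bar (n = 3). SON, RBM39, SRSF4 and SRSF11 are higher and SRSF7, HNRNPAB, HNRNPD and PTBP3 lower in the 6 Adavivint libraries, SRPK1 is lower in shS100A9 U937 cells, and HNRNPM is low in 1 library of each U937 group.

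Overexpression of S100A9 without drug gave smaller changes, mostly downward. Of 43 members 16 fell and 6 rose in overexpressing cells, 37.2% and 14.0%, beside 13.0% of all 15403 genes lower and 14.9% higher (28.0% changed). The median log2 fold change was -0.11 over the members and 0.02 over all genes. Of 43 members 23 had groups that did not overlap, 16 lower and 7 higher in overexpressing cells, beside 41.2% of all genes (19.0% lower and 22.3% higher). Apart from SRSF12 no member moved 2-fold, beside 1.27% of all genes higher and 0.571% lower by that much, and the 16 falls lay between 0.13 and 0.38 on the log2 scale. Leaving out 1 library at a time, 11 of the 22 calls were kept in all 6 fits: those of SRSF1, SRSF4, SRSF9, SRSF11, HNRNPA2B1, HNRNPA3, HNRNPAB, HNRNPF, HNRNPH2, HNRNPL and SON. The number that fell was 10 without empty vector replicate 1, beside 1318 of all genes. The number that rose was 3 without empty vector replicate 2, beside 1782 of all genes. It was 2 without overexpressing replicate 2 or 3, beside 1448 and 1604 of all genes.

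HNRNPAB had the largest fall, with 196, 200 and 206 CPM in overexpressing cells against 290, 269 and 226 CPM in empty vector cells (log2 fold change -0.38, SE 0.07, adjusted p = 0.00264). The groups did not overlap, and the empty vector libraries spread more. SRSF1 had 454, 481 and 483 CPM in overexpressing cells against 670, 581 and 542 CPM in empty vector cells (-0.34, SE 0.06, adjusted p = 0.00220). HNRNPA2B1 had 1886, 2054 and 2061 CPM in overexpressing cells against 2539, 2649 and 2322 CPM in empty vector cells (-0.32, SE 0.05, adjusted p = 8.04e-04). In all of these empty vector replicate 1 or 2 was the highest library. SRSF4 fell by 0.29, SRSF9 by 0.28, HNRNPL, which binds CA repeats, by 0.27, HNRNPM by 0.27, HNRNPF by 0.25, HNRNPH2 by 0.23, SON by 0.23 and HNRNPA3 by 0.22. PTBP1, SRSF2, HNRNPH3, SRSF7 and SRRM2 fell by 0.20, 0.19, 0.19, 0.17 and 0.13, and these calls did not hold: with 1 library left out, those of PTBP1 and SRSF2 were kept in 3 of 6 fits, those of HNRNPH3 and SRSF7 in 2, that of HNRNPM in 1 and that of SRRM2 in 0.

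The members that rose were TRA2A and HNRNPLL, by 0.31 each, SRSF11 by 0.30, PTBP3 by 0.24, RBM39 by 0.18, and SRSF12. Leaving out 1 library, the call of HNRNPLL was kept in 5 of 6 fits, those of TRA2A and RBM39 in 3, that of PTBP3 in 1 and that of SRSF11 in all 6. SRSF11 had 479, 546 and 555 CPM in overexpressing cells against 406, 432 and 451 CPM in empty vector cells (log2 fold change 0.30, SE 0.06, adjusted p = 0.00256). SRSF12 had 22 counts in overexpressing cells against 3 counts in empty vector cells, a ratio of 5.96 with a 95% counting interval of 1.79 to 31.1. Its call was kept in 2 of 6 fits, and it entered the THP-1 fit only through the libraries with drug. The remaining 21 members did not pass the test, SRPK1, SRPK2, HNRNPA1, HNRNPK and HNRNPU among them.

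**Figure D4:**
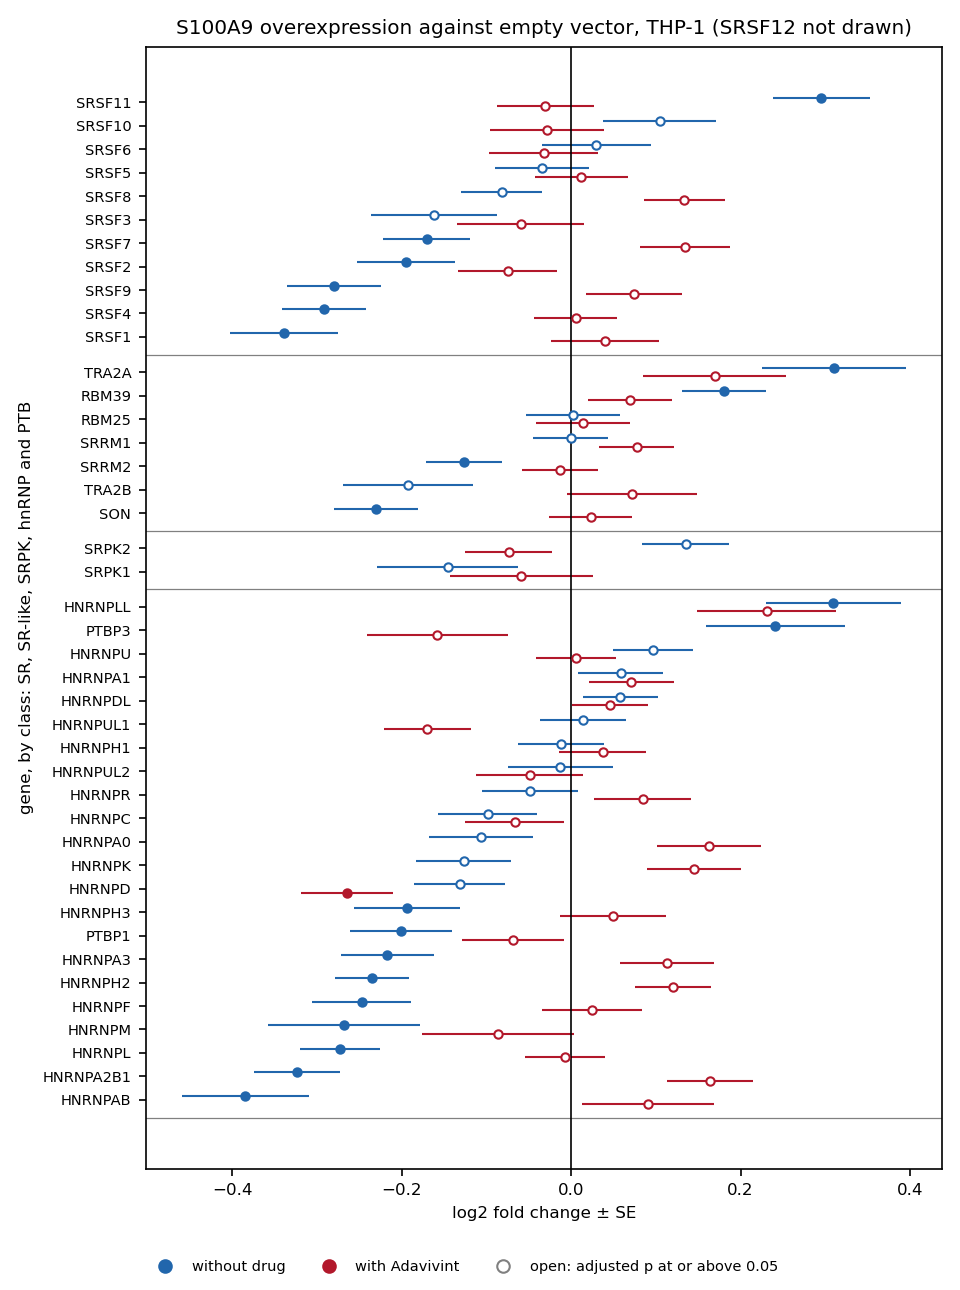
Log2 fold change of S100A9 overexpression against empty vector (x axis, points, with SE as bars) for 42 members (y axis, by class) in THP-1 cells without drug and with Adavivint. Filled points have an adjusted p under 0.05. Without drug 16 members are filled to the left of 0, and with Adavivint HNRNPD alone is filled.

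Under Adavivint overexpression changed 1 member. HNRNPD had 136, 143 and 144 CPM in overexpressing cells against 175, 173 and 162 CPM in empty vector cells (log2 fold change -0.26, SE 0.05, adjusted p = 0.0108), beside 8.50% of all genes changed (3.69% higher and 4.80% lower). The groups did not overlap, but the call was kept in 4 of 6 leave-one-out fits and was lost without empty vector replicate 2 with drug (adjusted p = 0.0527) or overexpressing replicate 1 with drug. No member rose in edgeR's test. In either direction 9 of 43 members had an unadjusted p under 0.05, beside 3589 of all 15403 genes. DESeq2 called 5 members higher and 2 lower, beside 965 and 1033 of all genes. The groups did not overlap in 16 members, beside 32.8% of all genes. The median log2 fold change of the members was 0.02.

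The difference between the drug effects (overexpressing minus empty vector) was tested directly. It was positive in 14 members and negative in 2 (32.6% and 4.65%), beside 8.04% and 11.2% of all genes (19.3% in all), and its median was 0.10 over the members and -0.02 over all genes. With library totals in place of TMM scaling, 12 were positive and 5 negative, beside 961 and 2379 of all genes (1239 and 1729 with TMM scaling). HNRNPA2B1 had the largest difference, 0.49 (SE 0.07, adjusted p = 0.00118): it rose by 0.61 with drug in overexpressing cells and by 0.12 in empty vector cells. HNRNPAB followed with 0.48 (SE 0.11, adjusted p = 0.00981), and SRSF1 with 0.38 (SE 0.09, adjusted p = 0.0123). PTBP3 at -0.40 (SE 0.12, adjusted p = 0.0308) and SRSF11 at -0.33 (SE 0.08, adjusted p = 0.0146) were the negative ones. The untreated libraries enter this difference and the contrast of overexpression without drug alike, so the calls are not independent: HNRNPA2B1, HNRNPAB and SRSF1 were the members lowest in overexpressing cells without drug, and PTBP3 and SRSF11 were among those higher. Without overexpressing replicate 3 or empty vector replicate 2 of the drug groups, 9 calls were positive, beside 893 and 890 of all genes. The number of negative calls was 1 in 6 of the 12 leave-one-out fits, beside 1088 to 1342 of all genes.

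**Figure D5:**
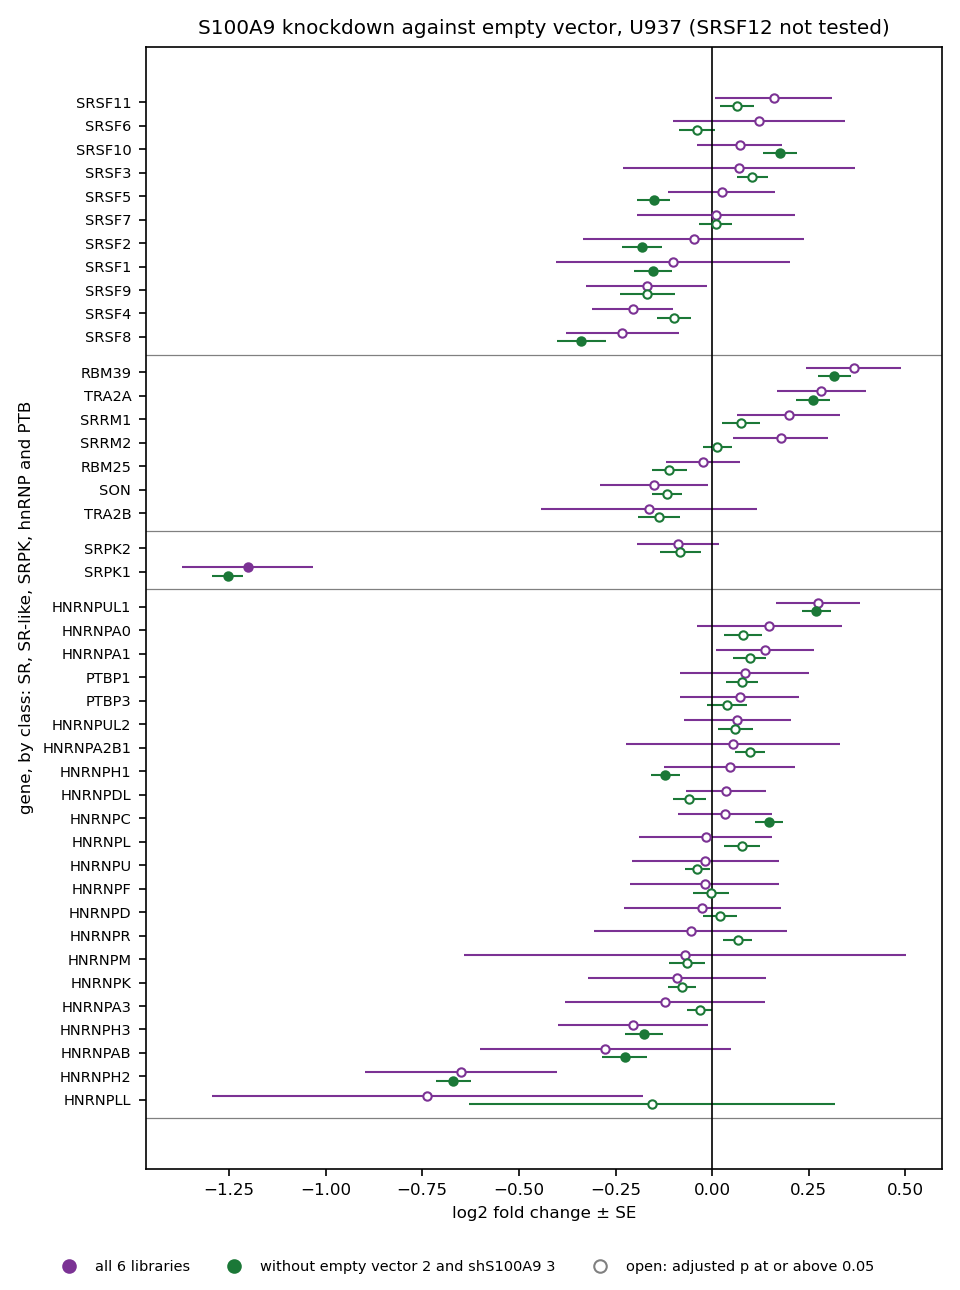
Log2 fold change of shS100A9 against empty vector in U937 cells (x axis, points, with SE as bars) for 42 members (y axis, by class), over all 6 libraries and without the libraries that stood apart. Filled points have an adjusted p under 0.05. SRPK1 lies near -1.2 in both fits, and the bars are shorter without those libraries.

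Knockdown of S100A9 in U937 cells changed 1 of the 42 members tested, SRPK1, a kinase that phosphorylates SR proteins in the cytoplasm (chromosome 6, 35832966 to 35921342, minus strand). It had 237, 241 and 194 CPM with shS100A9 against 573, 404 and 568 CPM with empty vector. The groups did not overlap, and the fall was 2.30-fold (-1.20 on the log2 scale, SE 0.17, adjusted p = 0.0278), beside 1.77% of all 13016 genes changed (0.230% higher and 1.54% lower, 0.876% lower by at least 2-fold). The log2 fold change stayed between -1.35 and -1.11 when 1 library was left out, but the adjusted p rose to as much as 0.142 and the call was kept in 1 of 6 fits. With the replicate number as a block it was 0.215. LHFPL5, which shares 265 bases of exon with SRPK1 on the opposite strand, fell as well, by 1.33 on the log2 scale (adjusted p = 0.0399), with 18.8 ± 5.49 CPM with shS100A9 against 47.5 ± 5.94 CPM with empty vector (SD, n = 3 each). In no THP-1 contrast of overexpression against empty vector did SRPK1 pass the test.

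No member rose in edgeR's test in U937 cells. In either direction 5 of 42 members had an unadjusted p under 0.05, beside 1857 of all 13016 genes. DESeq2 called 0 members higher and 1 lower, beside 235 and 562 of all genes. The spread came largely with shS100A9 replicate 3 and empty vector replicate 2, in which the median member lay 0.22 and 0.26 log2 units below its group mean. Across genes, the deviations of these libraries from their group means correlated with each other (r = 0.524). Between the remaining U937 libraries of different groups r was 0.27 to 0.48. The labels name no batch. HNRNPM had 430, 463 and 134 CPM with shS100A9 against 470, 144 and 466 CPM with empty vector, so that 1 library of each group was low and no difference between the groups was seen (log2 fold change -0.07). SRSF12 was not tested: it had 7 counts with shS100A9 against 0 with empty vector, and a count of 0 allows up to 0.0213 CPM over the group.

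Without both of those libraries, 5 members rose and 9 fell, 33.3% of the members beside 32.9% of all 13055 genes. SRPK1 fell by 1.25 (SE 0.04, adjusted p = 3.02e-06), and HNRNPH2, a binder of G runs, by 0.67 (SE 0.05). HNRNPH2 had 70.8, 70.9 and 45.9 CPM with shS100A9 against 112, 68.6 and 114 CPM with empty vector over all libraries, where it was not called (-0.65 on the log2 scale, adjusted p = 0.303). The other falls were those of SRSF8, HNRNPAB, SRSF2, HNRNPH3, SRSF1, SRSF5 and HNRNPH1, between 0.12 and 0.34 on the log2 scale, and the rises were those of RBM39, HNRNPUL1, TRA2A, SRSF10 and HNRNPC, between 0.15 and 0.32. This fit holds 2 libraries a group.

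Other genes of the splicing machinery, from lists set beside the members, also moved in both directions with Adavivint. Of 55 core spliceosome genes 29 rose and 17 fell in overexpressing cells, and 27 rose and 23 fell in empty vector cells. For these lists too the share of all genes is 43.4% higher and 41.3% lower in overexpressing cells, and 44.2% higher and 41.1% lower in empty vector cells, and no list was tested against it. SLU7, a factor of the second step of splicing, rose by 1.99 and 2.04 on the log2 scale, CWC22 by 1.59 and 1.44, and SF3B2, a subunit of the U2 particle, fell by 1.33 and 1.35. Of 45 other splicing regulators tested 18 rose and 21 fell in overexpressing cells, and 18 rose and 23 fell in empty vector cells. Among them RBM15, a partner of the m6A writer complex, rose by 1.94 and 1.73, FUBP1 by 1.73 and 1.66, and TAF15 fell by 1.39 and 1.18.

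Of 9 further genes of kinases known or proposed to phosphorylate SR proteins, 5 rose and 3 fell with either vector, and their median log2 fold change was 1.19 in overexpressing and 1.13 in empty vector cells. PRPF4B rose by 1.51 and 1.43, CLK4 by 1.38 and 1.57, CLK3 by 1.49 and 1.47, and DYRK1A, a kinase described as a target of the drug, by 1.19 and 1.13. Of 14 genes of nonsense-mediated decay 11 rose and 2 fell in overexpressing cells, and 10 rose and 3 fell in empty vector cells. SMG8, a regulator of the SMG1 kinase, rose by 2.11 and 1.72, RBM8A, a subunit of the exon junction complex, by 1.47 and 1.12, and the SMG1 kinase itself by 0.60 and 0.77.

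With overexpression alone 21 of 55 core spliceosome genes fell and 4 rose, beside 13.0% of all genes lower and 14.9% higher, with SNRPG lower by 0.54, SF3B5 by 0.42, SNRNP40 by 0.42 and DDX23 by 0.35 on the log2 scale. Of the other splicing regulators 9 rose and 7 fell, PCBP2 rising by 0.28 and RNPS1 falling by 0.35. Of the further kinases CLK4 rose by 0.21 and AKT1 fell by 0.19, and of the decay genes 5 fell, UPF1 by 0.31 and EIF4A3 by 0.27, and UPF3A rose by 0.19. Under Adavivint overexpression changed 2 core genes (SNRPD2 higher by 0.21 and SNRPA lower by 0.33), RBFOX2, lower by 0.41, and RBM8A, higher by 0.26. Of all genes 3.69% were higher and 4.80% lower in that contrast. The difference between the drug effects was positive in 15 and negative in 2 core genes, positive in 4 and negative in 7 other regulators, and positive in 3 and negative in 2 decay genes. It was positive in 8.04% and negative in 11.2% of all genes. In U937 cells MBNL3, a muscleblind splicing factor, fell by 0.74 with shS100A9 (adjusted p = 0.0218). No other gene of these lists passed edgeR's test. An unadjusted p under 0.05 was seen in 11 genes of the lists, MBNL3 included, beside 1857 of all 13016 genes.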

How the data were processed

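The values are raw counts, deposited as 1 table of whole numbers by Ensembl gene with a column for each library, and columns were matched to libraries by the names in the labels. Per the submitters' processing notes the aligner was HISAT2 2.0.4. For the counter, build, annotation and strand the sources used here give nothing, so reads of overlapping genes and near copies may be shared. Symbols came from a name table for 18642 of 18670 genes, and positions, exon lengths and transcript classes from GENCODE 29 on GRCh38. Promoters came from RefSeq (GRCh38.p14), and protein sequences were not used here.

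CPM used TMM-scaled library sizes within each line. Tests were edgeR 4.0.16 (R 4.3.3) quasi-likelihood F tests, two-sided, after filterByExpr, over all genes, with Benjamini-Hochberg adjustment and a threshold of 0.05. The U937 fit used 6 libraries and 13016 genes, and 1 THP-1 fit used 12 libraries and 15403 genes. The SE was taken as the size of the log2 fold change over the root of F. A gene without counts in a group was given a floor of 3 counts over the group. Between replicates the chi-square divided by its degrees of freedom was 7.43 to 235, so no library was counted as a repeat. The gene test was also run on simulated counts with the same dispersion for every gene and no library standing apart. The U937 libraries differ from that setting, and no result here rests on it. Alternatives were other scalings and filters, DESeq2 1.42.0, a replicate block, fits of only the groups compared, and leaving out libraries.

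The members, the gene lists and the libraries left out in U937 were chosen with earlier results of these data known. Any member could be named. Of the members that passed, the 8 higher and 8 lower by size were to have full values, and up to 4 genes of each other list were named by smallest p. MATR3 mapped to 2 identifiers and was left out of the lists.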

Additional observations from a re-analysis of the deposited data

Results flagged for a closer look

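The effect of Adavivint differed between overexpressing and empty vector THP-1 cells in 16 members, by the test of the difference itself in edgeR (overexpressing minus empty vector, log2 scale). Of all genes 19.3% passed that test. Among SR proteins the difference was 0.38 for SRSF1, 0.30 for SRSF4, 0.30 for SRSF7, 0.22 for SRSF8, 0.35 for SRSF9 and -0.33 for SRSF11. Among hnRNP and PTB proteins it was 0.27 for HNRNPA0, 0.49 for HNRNPA2B1, 0.33 for HNRNPA3, 0.48 for HNRNPAB, 0.27 for HNRNPF, 0.36 for HNRNPH2, 0.27 for HNRNPK, 0.27 for HNRNPL and -0.40 for PTBP3. For the speckle scaffold SON it was 0.25. Adjusted p values lay between 0.00118 and 0.0457.

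The drug effects behind these differences had the same direction with both vectors for SRSF4, SRSF7, SRSF8, SRSF9, SRSF11, HNRNPA2B1, HNRNPAB, HNRNPF, PTBP3 and SON. For SRSF1, HNRNPA3 and HNRNPK the drug effect passed the test in empty vector cells alone, and for HNRNPA0, HNRNPH2 and HNRNPL in overexpressing cells alone. Leaving out 1 of 12 libraries at a time, 10 of the 16 calls were kept in every fit. The call was kept in 10 of 12 fits for SON, 5 for HNRNPK, 4 for HNRNPF, 4 for PTBP3, 3 for SRSF8 and 2 for HNRNPA0.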

How the results depend on the processing

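The counts of members changed by Adavivint moved by less than 1.5 times under every scaling, filter and test tried. Leaving out 1 library, 20 to 23 rose and 13 to 14 fell in overexpressing cells (12778 to 12910 of all genes changed), and 16 to 20 rose and 17 to 18 fell in empty vector cells (12841 to 13103). For overexpression without drug these ranges were 2 to 6 and 10 to 21 (2735 to 4983 of all genes), under drug 0 to 0 and 0 to 2 (502 to 1174), for the difference between drug effects 9 to 17 and 1 to 3 (1885 to 3724), and in U937 cells 0 to 0 and 0 to 1 (18 to 362). Without both U937 libraries that stood apart, 5 members rose, 9 fell and 4296 genes changed. The replicate block called 0 members lower and 3 genes in U937, and DESeq2 called 797 genes there. Overexpression without drug had 3 members higher and 15 lower in a fit of only the groups compared, beside 1662 and 1878 of all genes. Under drug, members called higher were 1 with DESeq2 size factors in edgeR, 4 with upper quartile factors, 1 with a filter of 1 CPM, 5 with DESeq2 and 4 with only the groups compared. Of all genes 653, 745, 678, 965 and 973 were higher in these settings, in that order. Members called lower were 2 with library totals, with that filter, with DESeq2 and with only the groups compared. Of all genes 1555, 774, 1033 and 863 were lower in these settings, in that order, and DESeq2 changed 1998 genes. For the difference between drug effects, 5 members were negative with library totals and 4 with DESeq2, beside 2379 and 1906 of all genes. CLK2 under drug lay between -0.12 and 0.011 when 1 library was left out, with the sign reversed without empty vector replicate 3 with drug. The causes were not tested. Replicate numbers did not pair the libraries (same-number correlations of 0.27, -0.54 and -0.46 in U937 and -0.11 to 0.11 in THP-1). With the block 13 members were called lower and 5 higher with overexpression without drug, beside 1787 and 2077 of all genes. The interaction could not be fitted from separate drug fits. With 3 libraries a group, the spread limits small changes, and SRSF12 is limited by depth.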
